A study of Mus musculus with 6 samples.

Results

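The genes described here are the Wnt ligands, their receptors and the β-catenin pathway in mouse pancreatic islets, 63 of the 48321 gene names in the deposited table. They were chosen by name: all Wnt, Frizzled, Dishevelled, Sfrp, Dickkopf, Axin, Tcf7 and R-spondin rows, with Lrp5, Lrp6, Ctnnb1, Apc, Lef1, Lgr4, Lgr5, Rnf43, Znrf3, Nkd1, Nkd2, Wif1 and Porcn. RNA of isolated islets from C57BL6 mice, titled WT, was sequenced in 2 groups of 3 deposited columns. The high-fat group was fed for 4 months, starting at an age of 3 months, on food in which fat supplied 60 percent of the kcal. The other group was fed normal chow, with age and duration unlabelled. Whether a sample is 1 animal or a pool is not labelled either, so p-values measure only the spread between these samples. Values are CPM, taken from a deposited table that names no unit. Chow replicate 2 held the average of the other 2 chow columns for 48321 of 48321 names and was left out, so that n = 3 on the high-fat diet and n = 2 on chow.

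Wnt proteins are secreted ligands that are made competent by a lipid added by Porcn and that bind a Frizzled receptor together with Lrp5 or Lrp6. In the canonical branch this stops a complex of Axin, Apc and kinases from degrading β-catenin, which then enters the nucleus and activates genes with Tcf7, Tcf7l1, Tcf7l2 or Lef1. Secreted Sfrp, Dickkopf and Wif1 proteins hold the signal down, and R-spondins raise it by drawing the ubiquitin ligases Znrf3 and Rnf43 away from Frizzled. In islets the pathway is known for roles in beta-cell proliferation and maturation, and TCF7L2 is a well-known risk gene for type 2 diabetes in humans.

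The low values implied totals of 23.5 to 35.1 M reads on the high-fat diet, and of 18.8 and 24.7 M reads on chow. The floor, the worth of 3 reads, was 0.0856 to 0.16 CPM by library and covers only counting error. CPM summed to 963615, 832416 and 879301 over the gene names of the high-fat columns, and to 841705 and 674482 over those of the chow columns. Islet hormones were abundant in every library, with sums over 8 beta-cell markers of 87056 to 95116 CPM (high-fat) and of 57187 and 79512 CPM (chow). Small RNAs without a poly(A) tail separated the diets: Rn7sk had 3192 to 3935 CPM in high-fat islets and 6.27 and 13.3 CPM in chow islets. The type of library and the diet therefore cannot be told apart for any gene below.

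Of the 63 members, 40 averaged 0.5 CPM or more across the 5 libraries and were tested. With limma on log2(CPM + 1), 9 of the 40 were higher on the high-fat diet and 5 lower, taking an adjusted p (Benjamini-Hochberg) under 0.05 over all 16939 genes tested. Of all genes tested, 23.7% were called, 14.9% higher and 8.78% lower, against 35% of the tested members. Among the 14 called members, Fzd9 and Wnt10a passed the filter only through the high-fat group and Rspo2 only through chow. Their group means therefore had to lie on different sides of the filter, which does not force a call. Fzd2 also passed only through chow and was not called (limma adjusted p = 0.16). Because of this selection, nothing is read from the 35%. The high-fat and chow libraries were fully separate in 26 of the 40 members (65%), and in 55.4% of all genes tested. The median log2 fold change of the tested members was 0.06, against 0.05 for all genes. The 9 higher members were the ligands Wnt7b and Wnt10a, the receptors Fzd9 and Fzd8, the inhibitor Sfrp5, Rspo4, Znrf3, Dvl3 and Tcf7l2. The 5 lower members were the inhibitors Dkk3 and Sfrp1, Rspo2, Wnt9a and Fzd4. Without chow replicate 1 or any high-fat replicate the 5 lower calls became 3 in each case, Wnt9a and Fzd4 being the calls that ended. With acinar-free scaling, in which acinar marker, Ins1 and Ins2 rows were dropped from the library size, the median over all genes moved by -0.31 to -0.26, and 5 members were higher and 6 lower. There 17.8% of all calls were higher, against 62.9% with the deposited CPM, and with median-ratio scaling 53.1%.

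**Figure D1:**
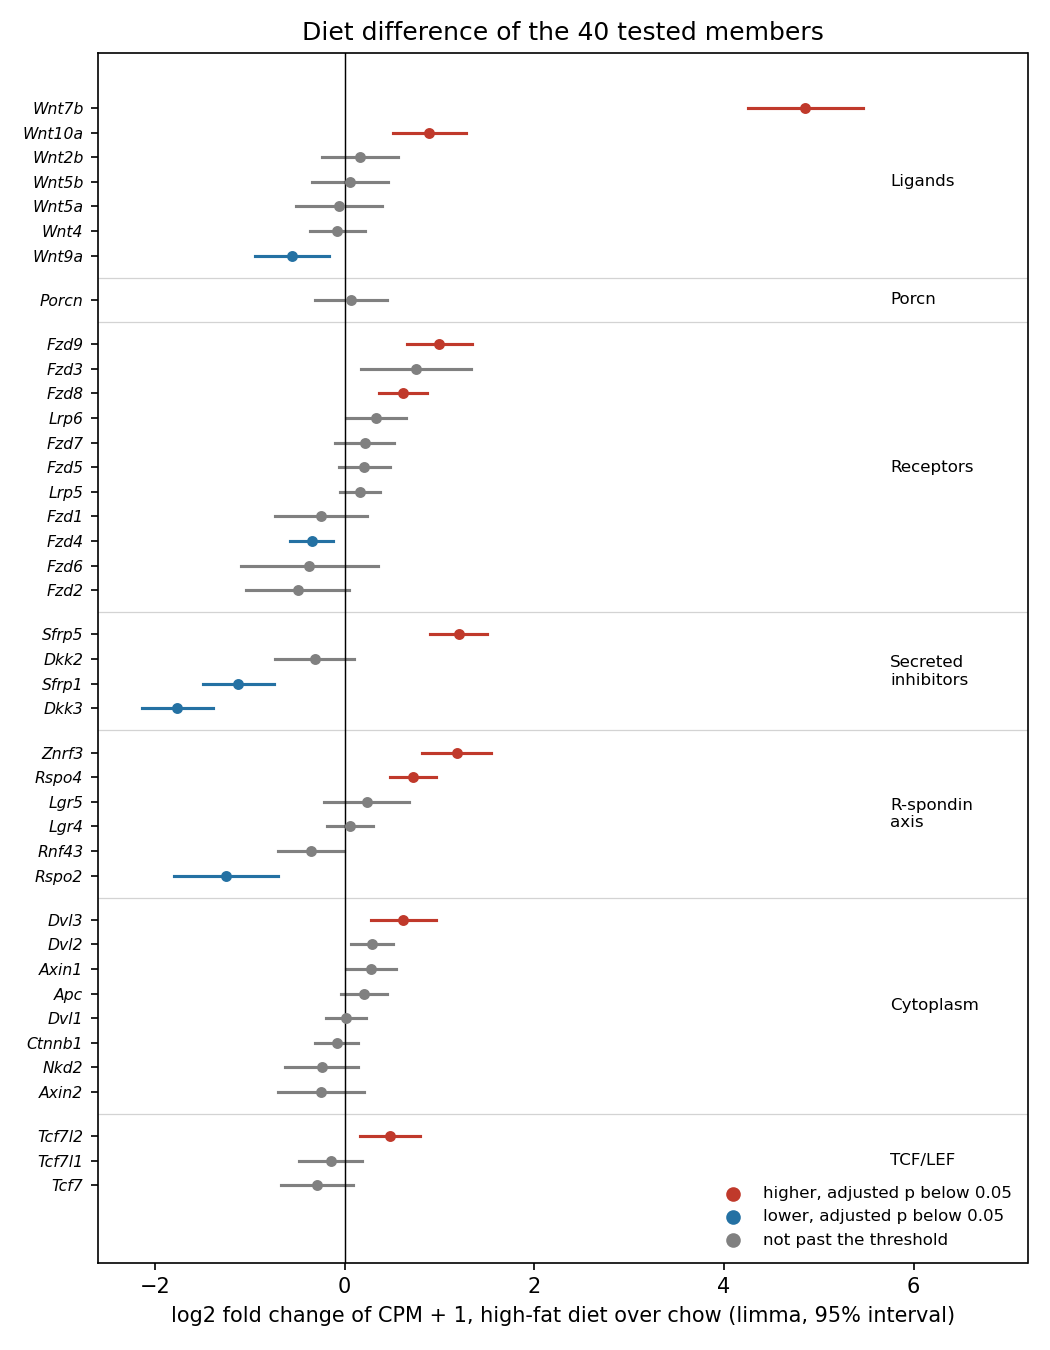
Log2 fold change of CPM + 1 (x axis, high-fat diet over chow, limma) with its 95% interval for the 40 tested members, grouped by role. Red marks the 9 higher members, blue the 5 lower ones and grey those not past the threshold; Wnt7b lies at 4.86, far to the right of the others.

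Among the 9 higher members, 5 had a RefSeq promoter window (250 bases before to 50 bases after the start of transcription, GRCm38.p6). They are shown for the 3 of them whose rise had the smallest adjusted p, and for Tcf7l2, where the second of its 2 windows carries a word to which its own protein family binds and the first, chr19:55741560-55741859, carries none. Capitals mark, on either strand, CTTTG followed by 2 letters that are each A or T, the core of TCF/LEF sites. No other motif was searched.
Sfrp5, chr19:42202203-42202502, minus strand: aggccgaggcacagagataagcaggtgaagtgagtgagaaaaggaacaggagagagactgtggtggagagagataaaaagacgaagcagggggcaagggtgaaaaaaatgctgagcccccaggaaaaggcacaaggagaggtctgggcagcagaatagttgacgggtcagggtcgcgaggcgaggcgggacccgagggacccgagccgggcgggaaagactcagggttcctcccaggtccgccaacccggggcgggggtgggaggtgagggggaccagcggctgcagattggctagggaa
Rspo4, chr2:151842677-151842976, plus strand: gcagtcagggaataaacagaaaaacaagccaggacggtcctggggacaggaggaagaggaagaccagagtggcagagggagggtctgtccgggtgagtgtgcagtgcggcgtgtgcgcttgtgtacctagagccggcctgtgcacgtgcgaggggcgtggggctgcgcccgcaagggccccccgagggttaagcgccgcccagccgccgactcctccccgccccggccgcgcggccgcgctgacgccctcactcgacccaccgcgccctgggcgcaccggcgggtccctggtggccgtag
Fzd9, chr5:135250998-135251297, minus strand: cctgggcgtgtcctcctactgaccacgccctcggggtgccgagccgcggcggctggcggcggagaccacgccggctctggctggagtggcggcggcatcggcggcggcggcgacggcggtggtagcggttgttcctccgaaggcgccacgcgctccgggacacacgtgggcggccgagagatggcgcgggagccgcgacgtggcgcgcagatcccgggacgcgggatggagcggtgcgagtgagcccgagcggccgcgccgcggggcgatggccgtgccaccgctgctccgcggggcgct
Tcf7l2, second of 2 windows, chr19:55895071-55895370, plus strand: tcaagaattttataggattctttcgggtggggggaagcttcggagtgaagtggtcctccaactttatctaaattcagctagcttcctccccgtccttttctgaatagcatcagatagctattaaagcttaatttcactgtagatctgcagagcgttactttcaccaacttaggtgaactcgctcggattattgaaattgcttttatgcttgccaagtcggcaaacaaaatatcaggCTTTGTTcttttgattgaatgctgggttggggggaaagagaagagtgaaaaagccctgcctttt
The windows of Sfrp5, Rspo4 and Fzd9 held none of these words. G and C made up 61.3%, 71% and 78% of the bases in these 3 windows, with 15, 31 and 53 CpG pairs. The shown Tcf7l2 window had 42% G and C, 7 CpG pairs and 1 match, CTTTGTT, which began 14 bases before the start. A match was present in 7 of the 52 windows of the 42 members in the table (13.5%), and in 16.9% of all 32851 windows. These matches are letters only, and binding was not measured.

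Wnt7b (chromosome 15), a ligand that signals through β-catenin in several epithelia and in brain vessels, made the largest difference of any member. It stood at 86.0, 43.3 and 61.0 CPM in high-fat replicates 1, 2 and 3, and at 1.28 and 1.0 CPM in chow replicates 1 and 3, where these are 24 and 25 reads. The lowest high-fat library was far above the higher chow library. The mean was 63.4 ± 21.5 CPM on the high-fat diet and 1.14 ± 0.2 CPM on chow (SD, n = 3 and 2), a ratio of 55.5. The log2 fold change was 4.86 ± 0.26 (SE, limma adjusted p = 4.71e-05), and 51 of the 16939 genes rose further. The antisense transcript AU022754, which overlaps Wnt7b on the other strand, had 0.127, 0.307 and 0.0851 CPM (high-fat) against 0.16 and 0.243 CPM (chow). Use of strand in the counting is not given in the sources used here, so reads of such a pair cannot be told apart. The 12 acinar markers, genes of the digestive enzyme cells around the islets, summed to 82066, 9637 and 29622 CPM in high-fat replicates 1, 2 and 3, and to 143434 and 45437 CPM on chow. Within each diet the order of the libraries was the same for Wnt7b and the acinar sum. Between the diets their directions were opposite, with a mean acinar sum of 40442 CPM (high-fat) and 94436 CPM (chow). Beyond the adjusted fit given below, the part of acinar tissue in the Wnt7b result was not tested. The Wnt7b call held in all 14 alternatives, with adjusted p from 3.82e-08 to 0.0026. Adjusted for the acinar score, the log2 summed CPM of these markers, its log2 fold change was 5.26 (adjusted p = 3.83e-06, limma).

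Wnt4 (chromosome 4), the ligand known to be abundant in mature beta cells, was the most abundant Wnt transcript per length in every library and did not pass the test. It was at 134, 144 and 165 CPM on the high-fat diet, and at 168 and 144 CPM on chow. The groups overlapped, with a log2 fold change of -0.08 (95% interval -0.37 to 0.21, limma adjusted p = 0.67). Per kilobase of exon (GENCODE M21, CPM per kb), Wnt4 made up 61.7%, 74.7% and 72.8% of all 19 ligands in the high-fat libraries, and 94.7% and 93.0% in the chow libraries. Wnt7b made up 33.9%, 19.2% and 23.0% in the high-fat libraries, and 0.618% and 0.555% in the chow libraries. Wnt7b ranked below Wnt4 in every library, and in the high-fat libraries above the other 17 ligands. Wnt5b had 0.891 to 1.04 CPM per kb in high-fat islets, against 0.773 and 1.1 CPM per kb on chow.

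**Figure D2:**
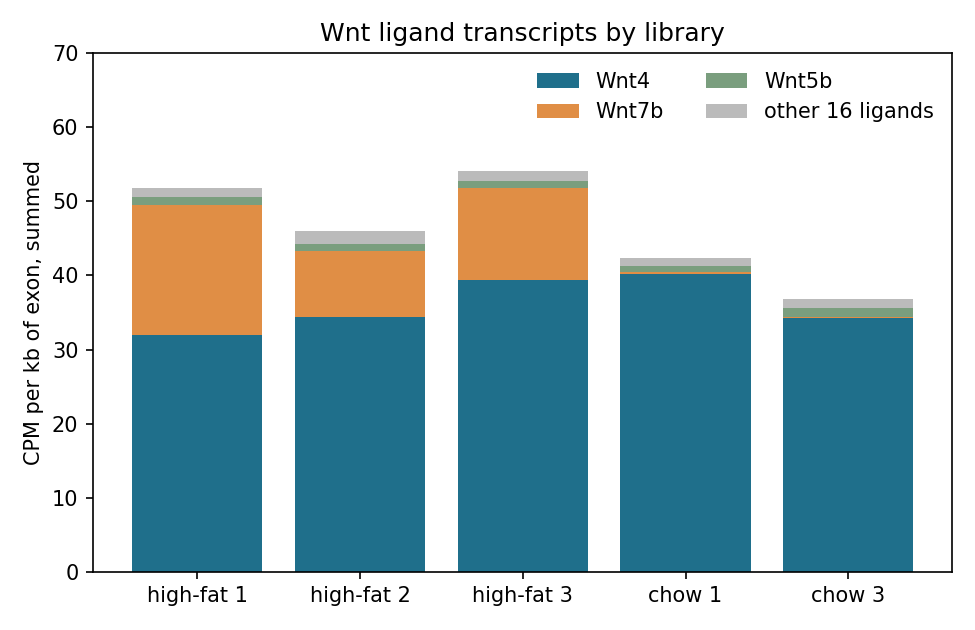
Summed level of the 19 Wnt ligands in CPM per kb of exon (y axis) in each library (x axis), stacked by ligand. Wnt4 is the largest part of every bar, and Wnt7b is visible in the 3 high-fat libraries, where it makes up 19.2% to 33.9% of the sum.

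Of the 19 ligands 7 were tested, and those other than Wnt4 and Wnt7b were low. Wnt10a, a β-catenin ligand known from skin, hair and teeth, was at 0.748, 1.17 and 0.943 CPM on the high-fat diet, and at 0.0534 and 0.0405 CPM on chow. Each chow value is worth 1 read, so the rise rests on 81 reads in 82.25 M against 2 reads in 43.49 M, a ratio of 21.4. Its exact 95% interval of 5.74 to 179.8 covers counting error in the pooled reads only, not the spread between libraries. Wnt10a entered the test only through the high-fat group, so its call and fold change describe a gene that the filter selected for being high there. Its log2 fold change was 0.89 ± 0.16 (SE, adjusted p = 0.0109, limma), which became 0.53 with 2 added to the CPM and 1.40 with 0.5, and the call ended when adjusted for the acinar score (0.78, adjusted p = 0.0542). Wnt9a was at 0.555, 0.372 and 0.725 CPM on the high-fat diet, and at 1.33 and 1.22 CPM on chow. It fell by 0.56 ± 0.17 on the log2 scale (SE, limma adjusted p = 0.0495), at the edge of the threshold. The Wnt9a call ended without each library in turn: adjusted p was 0.17 without chow replicate 1, 0.0935 without chow replicate 3, and 0.0986, 0.136 and 0.0742 without high-fat replicates 1, 2 and 3. Its fold change was -0.87 with acinar-free scaling and -0.36 with 2 added to the CPM. The call also ended with no filter (adjusted p = 0.166), with 0.5 added to the CPM (0.0525) and adjusted for the acinar score (-0.47 on the log2 scale, 0.185). Wnt5a, Wnt5b and Wnt2b were tested with adjusted p of 0.846, 0.836 and 0.505, and Porcn was at 5.16, 4.8 and 3.91 CPM on the high-fat diet, against 4.73 and 3.97 CPM on chow (adjusted p = 0.779).

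Of the 12 receptors and co-receptors, 11 were tested, with 2 higher and 1 lower, against 14.9% and 8.78% of all genes tested. The co-receptors Lrp6 and Lrp5 had the highest levels per kilobase of the 12 in every library. Lrp6 was at 89.6, 90.1 and 97.3 CPM on the high-fat diet, and at 62.5 and 85.1 CPM on chow, with a log2 fold change of 0.33 ± 0.13 (SE, limma adjusted p = 0.111). Lrp5 was at 52.7, 46.6 and 52.3 CPM on the high-fat diet, and at 43.6 and 46.7 CPM on chow, with a log2 fold change of 0.16 (95% interval -0.05 to 0.37). Lrp6 did not overlap between the diets and Lrp5 did, and neither passed the threshold. Without chow replicate 3, Lrp6 passed it (0.55, adjusted p = 0.0093).

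Fzd9 and Fzd8 rose and Fzd4 fell, the 3 calls among the 11 tested receptors. Fzd9 was at 1.06, 1.14 and 1.20 CPM on the high-fat diet, and at 0.0532 and 0.0817 CPM on chow, or 93 reads against 3. The read ratio was 16.4, with an exact 95% interval of 5.44 to 80.9 that again covers only counting error in pooled reads. The log2 fold change was 1.0 ± 0.15 (SE, limma adjusted p = 0.00504). Fzd9, like Wnt10a, entered the test only through the high-fat group, so that its call is no independent support, and its fold change was 0.60 with 2 added to the CPM and 1.52 with 0.5. Fzd8 was at 11.9, 12.8 and 11.9 CPM on the high-fat diet, and at 7.29 and 7.90 CPM on chow, a log2 rise of 0.62 ± 0.11 (SE, limma adjusted p = 0.00924). With acinar-free scaling the Fzd8 call ended (0.30, adjusted p = 0.219). Measured from the median over all genes, its fold change was 0.57 with the deposited CPM and 0.56 with acinar-free scaling. Rescaling a library moves nearly all genes alike, and taking off the median removes that shift. The match of these values is therefore no check of the call.

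Fzd4, which also serves as the Norrin receptor of blood vessels, was at 14.8, 13.5 and 15.2 CPM on the high-fat diet, and at 18.8 and 18.6 CPM on chow. It fell by 0.35 ± 0.10 on the log2 scale (SE, limma adjusted p = 0.0407). Its call ended without chow replicate 1 (0.121) and 3 (0.0765), without high-fat replicates 1, 2 and 3 (0.0928, 0.128 and 0.0838), adjusted for the acinar score (0.165), with no filter (0.0779) and with no trend in the variance prior (0.062), adjusted p in brackets. The log2 fold change was -0.30 adjusted for the acinar score and -0.38 to -0.30 with a library left out. With acinar-free scaling the Fzd4 fold change was -0.70. The 8 endothelial markers summed to 350, 424 and 402 CPM on the high-fat diet, and to 441 and 526 CPM on chow, with 3 of 8 lower, 0 higher and none at 0. Their part in the Fzd4 result was not tested. In bulk samples, fewer cells of a type and less RNA per cell cannot be told apart. Fzd3 was at 35.1, 31.6 and 37.6 CPM on the high-fat diet, and at 14.4 and 28.2 CPM on chow, where the 2 chow libraries stood far apart (0.75 ± 0.25, SE, adjusted p = 0.0666, limma). Without chow replicate 3, Fzd3 passed the threshold at 1.22 (adjusted p = 0.00224) and Fzd6 at -0.88 (adjusted p = 0.0397). Fzd6 itself was at 7.35, 10.8 and 7.19 CPM on the high-fat diet, and at 16.1 and 7.45 CPM on chow. Fzd1, Fzd2, Fzd5 and Fzd7 had adjusted p from 0.16 to 0.402.

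The secreted inhibitors split, with Sfrp5 higher and Dkk3 and Sfrp1 lower. Sfrp5, a decoy that binds Wnt ligands and is known from adipose tissue, was at 37.9, 38.7 and 40.1 CPM on the high-fat diet, and at 19.0 and 14.0 CPM on chow. The high-fat libraries lay close together, and all 3 were above both chow libraries. The mean was 38.9 ± 1.11 CPM on the high-fat diet and 16.5 ± 3.55 CPM on chow (SD, n = 3 and 2). Sfrp5 rose by 1.20 ± 0.13 on the log2 scale (SE, limma adjusted p = 0.00151), and the call held in all 14 alternatives (0.87 to 1.41). Per length Sfrp5 was the most abundant inhibitor in every library, at 19.96, 20.4 and 21.1 CPM per kb on the high-fat diet, and at 10.02 and 7.39 CPM per kb on chow.

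Dkk3 (chromosome 7), a Dickkopf relative whose action on the co-receptors is less settled than that of Dkk1, was at 1.47, 1.94 and 2.04 CPM on the high-fat diet, and at 7.96 and 9.11 CPM on chow. It fell by 1.76 ± 0.16 on the log2 scale (SE, limma adjusted p = 0.000717), the largest fall among the members on the log2(CPM + 1) scale, and kept its call in all 14 alternatives. Sfrp1 (chromosome 8), another decoy of the Sfrp family, was at 1.45, 1.28 and 1.83 CPM on the high-fat diet, and at 4.47 and 4.44 CPM on chow. It fell by 1.12 ± 0.16 on the log2 scale (SE, limma adjusted p = 0.00449), and its call also held in all 14. For both genes every high-fat library lay below both chow libraries. Dkk2, which binds Lrp6, was at 2.15, 2.65 and 1.97 CPM on the high-fat diet, and at 2.61 and 3.52 CPM on chow (-0.32, 95% interval -0.73 to 0.10, adjusted p = 0.232, limma).

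Fibroblast and stellate cell markers moved in the same direction as Dkk3 and Sfrp1. The 8 markers summed to 28.9, 33.0 and 59.8 CPM on the high-fat diet, and to 214.4 and 105.5 CPM on chow, with 6 of 8 lower, 0 higher and none at 0. Decorin (Dcn), a matrix proteoglycan, was at 4.39, 2.94 and 6.81 CPM on the high-fat diet, and at 60.9 and 21.1 CPM on chow. In chow replicates 1 and 3 the fibroblast sum was 214.4 and 105.5 CPM, Dkk3 7.96 and 9.11 CPM, and Sfrp1 4.47 and 4.44 CPM. Markers of Schwann and neuronal cells were lower in 4 of 7 and higher in 1 of 7, with sums of 36.5, 38.5 and 38.8 CPM on the high-fat diet, and of 40.2 and 48.3 CPM on chow. Pericyte and smooth muscle markers summed to 145, 172 and 156 CPM on the high-fat diet, against 185 and 207 CPM on chow, with 2 of 6 lower, 0 higher and none at 0. The part of these cell types in the lower members was not tested.

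**Figure D3:**
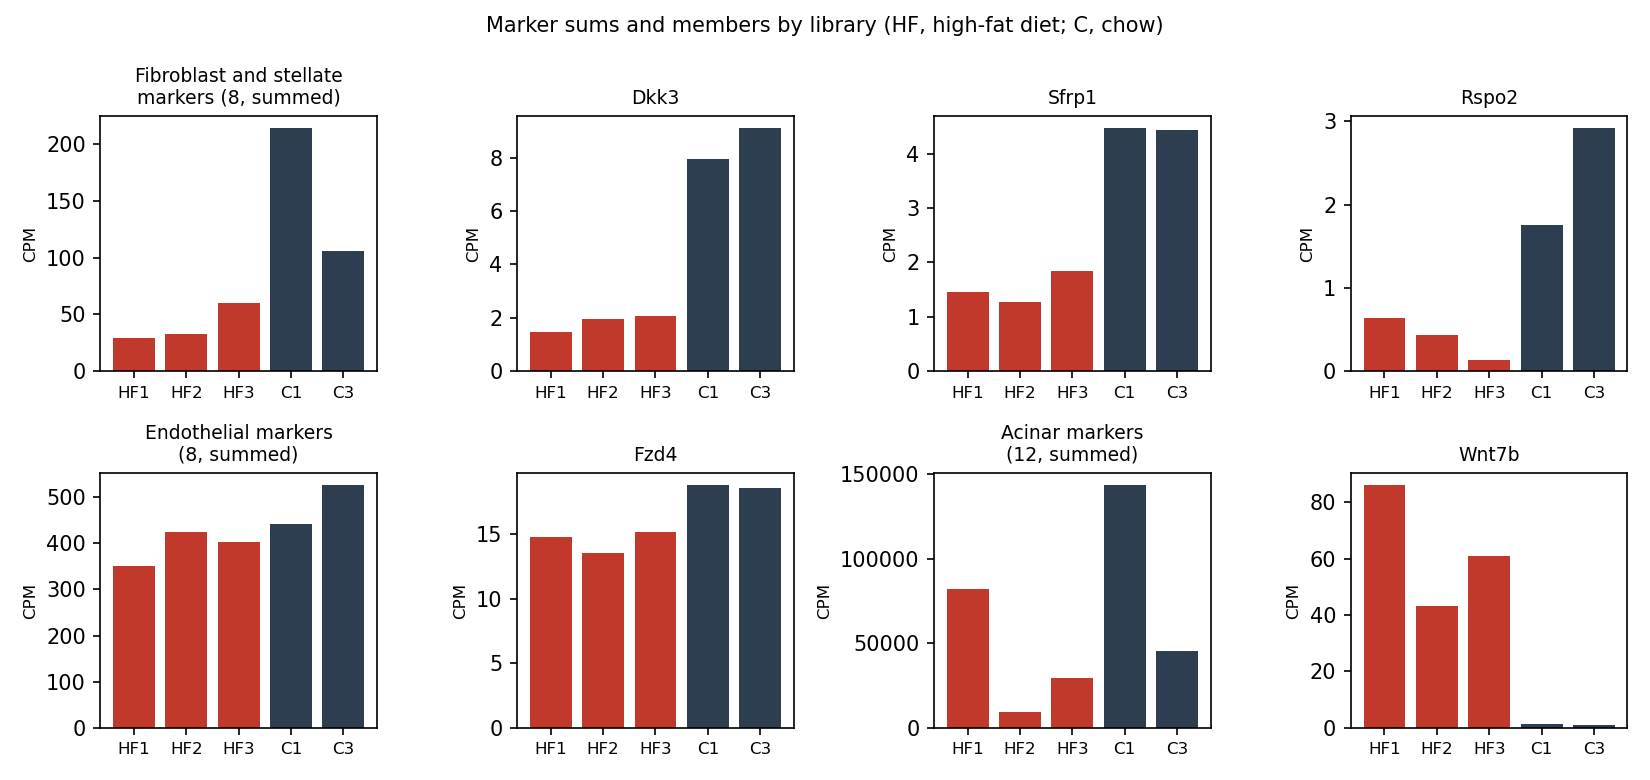
CPM (y axis, linear from 0) in each library for the summed fibroblast and stellate, endothelial and acinar markers and for Dkk3, Sfrp1, Rspo2, Fzd4 and Wnt7b; HF1 to HF3 are the high-fat libraries and C1 and C3 the chow libraries. The fibroblast sum is 28.9 to 59.8 CPM in HF1 to HF3 and 214.4 and 105.5 CPM in C1 and C3, while the acinar sum spreads widely within each diet.

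In the R-spondin axis, Rspo4 and Znrf3 rose, Rspo2 fell, and Rnf43 and the receptors Lgr4 and Lgr5 did not pass the threshold. Rspo4, an R-spondin whose loss affects nails in humans, was at 23.6, 26.8 and 28.0 CPM on the high-fat diet, and at 15.1 and 15.8 CPM on chow. It rose by 0.72 ± 0.10 on the log2 scale (SE, limma adjusted p = 0.00435). The antisense transcript Rspo4os, on the other strand, was at 0.0851 CPM or less in all 5 libraries. With acinar-free scaling the Rspo4 call ended (0.38, adjusted p = 0.107). Measured from the median over all genes, its fold change was 0.67 with the deposited CPM and 0.64 with acinar-free scaling. This match, too, follows from the shared shift and is no check of the call. Per length Rspo4 was the most abundant of the 4 R-spondins in every library, at 9.97, 11.3 and 11.8 CPM per kb on the high-fat diet, and at 6.37 and 6.65 CPM per kb on chow.

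Znrf3 (chromosome 11), which marks Frizzled receptors for removal, was at 30.5, 36.5 and 31.0 CPM on the high-fat diet, and at 11.6 and 16.4 CPM on chow. It rose by 1.18 ± 0.15 on the log2 scale (SE, limma adjusted p = 0.0033), and the call held in all 14 alternatives (0.85 to 1.42). Its relative Rnf43, with the same role, was at 2.79, 2.51 and 3.15 CPM on the high-fat diet, and at 3.77 and 3.97 CPM on chow. The Rnf43 libraries did not overlap, in the direction opposite to Znrf3, but the difference did not pass the threshold (-0.36, 95% interval -0.71 to -0.01 unadjusted, limma adjusted p = 0.123). Rnf43 passed it with acinar-free scaling (-0.68, adjusted p = 0.0295). Rspo2 was at 0.633, 0.428 and 0.128 CPM on the high-fat diet, and at 1.76 and 2.92 CPM on chow, and fell by 1.25 ± 0.23 on the log2 scale (SE, limma adjusted p = 0.0114), having passed the filter only through chow. Its mean CPM on the high-fat diet was 0.17 times that on chow, against 0.213 times for Dkk3. The Rspo2 values rest on 15, 15 and 3 reads on the high-fat diet, and on 33 and 72 reads on chow. Its call ended with no filter (adjusted p = 0.0708). Between the diets its direction was again that of the fibroblast marker sum, and within each diet the order of the libraries was the reverse. The part of these cells was not tested. Lgr4, the R-spondin receptor with the higher level per length, was at 30.2, 24.7 and 27.8 CPM on the high-fat diet, and at 26.99 and 25.9 CPM on chow (0.06, 95% interval -0.19 to 0.30, adjusted p = 0.724, limma). Lgr5 was at 0.759, 0.863 and 0.655 CPM on the high-fat diet, and at 0.266 and 0.77 CPM on chow (adjusted p = 0.408).

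**Figure D4:**
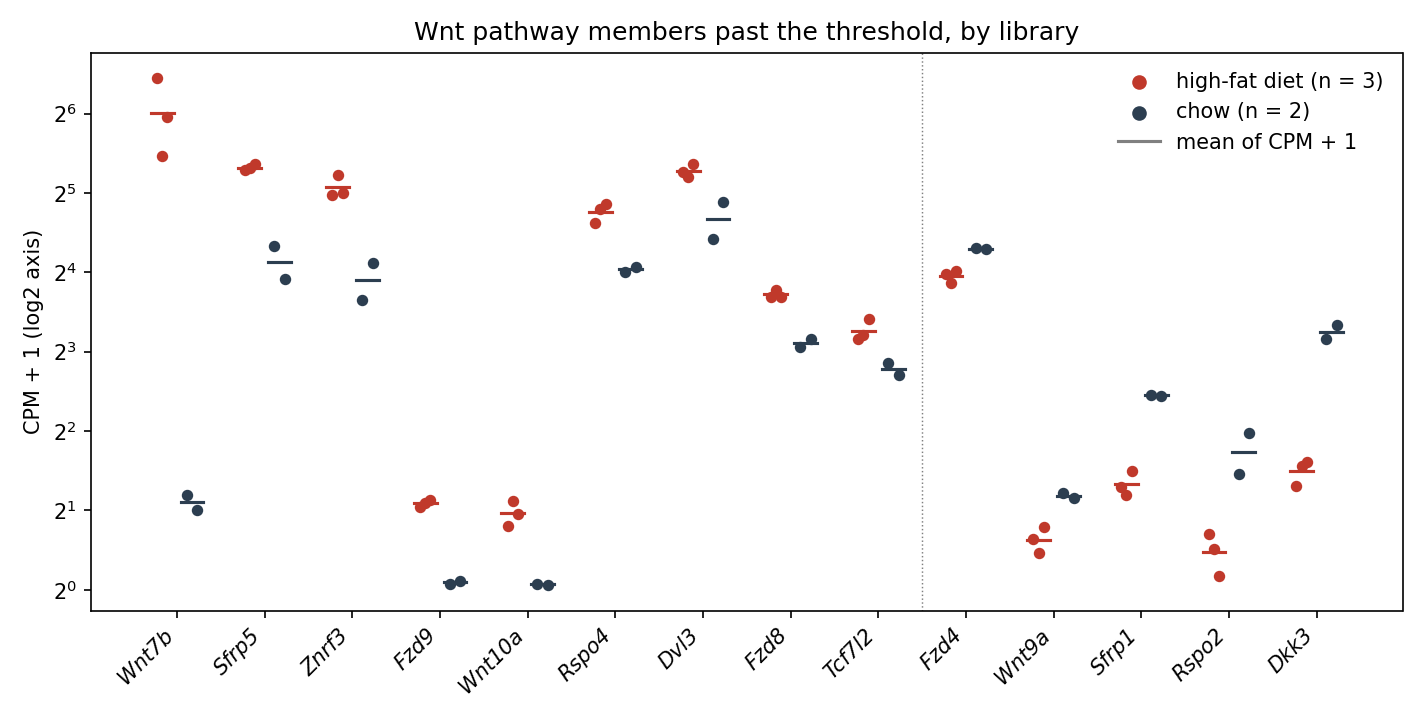
CPM + 1 on a log2 axis for each of the 14 members past the threshold, with 1 point per library (3 high-fat libraries in red on the left of each pair, 2 chow libraries in dark blue on the right) and a bar at the mean of CPM + 1. The 9 members left of the dotted line were higher on the high-fat diet, and the 5 on the right were lower; Wnt10a and Fzd9 are near 1, the value of a gene with no reads, on chow.

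Of the 9 cytoplasmic members 8 were tested, with 1 higher and 0 lower by limma, against 14.9% and 8.78% of all genes tested. An unadjusted p below 0.05 was found in 3 of the 8, and in 6576 of all 16939 genes tested. Ctnnb1, which encodes β-catenin, had the highest level per kilobase of all members in every library. It was at 262.5, 265.2 and 257.3 CPM on the high-fat diet, and at 285.6 and 269.6 CPM on chow. The groups did not overlap, yet the log2 fold change was -0.08 (95% interval -0.31 to 0.14, limma adjusted p = 0.547). Apc, a scaffold of the degradation complex, was at 100.4, 97.2 and 101.6 CPM on the high-fat diet, and at 77.8 and 95.8 CPM on chow (0.21, 95% interval -0.04 to 0.45, adjusted p = 0.194, limma). Axin1, the limiting scaffold of the same complex, was at 53.6, 50.3 and 55.4 CPM on the high-fat diet, and at 38.9 and 48.8 CPM on chow (0.28, adjusted p = 0.114). Chow replicate 1 was the lowest library for both, and without chow replicate 3 they passed the threshold (Apc 0.35, adjusted p = 0.0262; Axin1 0.44, adjusted p = 0.0206).

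Axin2, whose transcription is a common readout of β-catenin activity, was at 6.0, 8.26 and 9.70 CPM on the high-fat diet, and at 10.2 and 8.92 CPM on chow. The diets overlapped, with a log2 fold change of -0.25 (95% interval -0.70 to 0.20, limma adjusted p = 0.374). Of the 3 Dishevelled proteins that relay the signal from Frizzled, Dvl3 rose. It was at 37.3, 35.8 and 40.1 CPM on the high-fat diet, and at 20.3 and 28.7 CPM on chow, with a log2 fold change of 0.62 ± 0.14 (SE, limma adjusted p = 0.0241). The Dvl3 call ended without chow replicate 1 (0.38, adjusted p = 0.0586) and without high-fat replicates 1, 2 and 3 (adjusted p = 0.0658, 0.0625 and 0.0807). It also ended with acinar-free scaling (0.28, adjusted p = 0.31), adjusted for the acinar score (0.55, adjusted p = 0.0906) and with no filter (0.62, adjusted p = 0.0937). Measured from the median over all genes, the Dvl3 fold change was 0.57 with the deposited CPM and 0.53 with acinar-free scaling. For Dvl3, as for Fzd8, this match is no check of the call. Its antisense neighbour Gm16618 had 0.38, 0.2 and 0.383 CPM (high-fat) against 0.213 and 0.322 CPM (chow). Dvl2 was at 19.1, 21.2 and 21.4 CPM on the high-fat diet, and at 17.0 and 16.3 CPM on chow (0.29, adjusted p = 0.0686). Dvl1 differed by 0.02 on the log2 scale (95% interval -0.19 to 0.23), and Nkd2, a Dishevelled inhibitor, by -0.24 (adjusted p = 0.316).

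Of the transcription factors, Tcf7l2 was called higher at the edge of the threshold. It was at 7.95, 8.27 and 9.59 CPM on the high-fat diet, and at 6.22 and 5.52 CPM on chow, with means of 8.61 ± 0.868 CPM on the high-fat diet and 5.87 ± 0.494 CPM on chow (SD, n = 3 and 2). The log2 rise was 0.48 ± 0.13 (SE, limma adjusted p = 0.0406). Adjusted p was 0.0812 without chow replicate 1, 0.118 without chow replicate 3, and 0.0728, 0.0971 and 0.122 without high-fat replicates 1, 2 and 3. The call also ended with median-ratio scaling (0.061), with acinar-free scaling (0.495), with no filter (0.0887) and adjusted for the acinar score (0.11). The log2 fold change was 0.42, 0.17, 0.48 and 0.49 in these 4 settings. Measured from the median over all genes, it was 0.43 both with the deposited CPM and with acinar-free scaling, again no check of the call. Tcf7l1 was at 3.38, 4.00 and 3.75 CPM on the high-fat diet, and at 4.2 and 4.21 CPM on chow (-0.15, 95% interval -0.48 to 0.18). Tcf7 was at 0.591, 0.509 and 0.597 CPM on the high-fat diet, and at 1.12 and 0.729 CPM on chow (adjusted p = 0.23). None of the 3 overlapped between the diets, Tcf7l2 upward and the other pair downward, and only Tcf7l2 was called. Such separation, in either direction, was present in 55.4% of all genes tested.

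The remaining 23 members had a mean below 0.5 CPM, from 0.0213 to 0.418 CPM, and were not tested in the main fit. They were 12 ligands, 6 secreted inhibitors (Sfrp2, Sfrp4, Dkk1, Dkk4, Dkkl1 and Wif1), Rspo1 and Rspo3, Fzd10, Nkd1 and Lef1. In all 5 libraries Wnt3a was at or under the floor of 3 reads, and Wnt11 and Wnt16 were above it. Lef1 was at 0, 0.175 and 0.298 CPM on the high-fat diet, and at 0.32 and 0.204 CPM on chow. Nkd1, a feedback inhibitor of Dishevelled, was at 0.169, 0.229 and 0.128 CPM on the high-fat diet, and at 0.373 and 0.471 CPM on chow. With no filter, limma called 0 of the 23, and 7 had an unadjusted p below 0.05, the lowest adjusted p being 0.0729 for Sfrp4. Of all 39352 genes in that fit, 5123 were higher and 3232 lower at an unadjusted p below 0.05. Nothing is read from the 7.

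Other genes of the pathway were taken from a list of 102 gene names with a row, of which 93 were tested. Of these, 17 were higher and 4 lower, 22.6% in all, against 23.7% of all genes tested, and the median log2 fold change was 0.09. With acinar-free scaling, 5 were higher and 17 lower, against 803 and 3716 of all 16939 genes tested. Which single genes of the list kept their calls was not followed. Leaving out chow replicate 1 gave 8 higher and 0 lower (limma; 6 lower at an unadjusted p below 0.05). Leaving out chow replicate 3 gave 25 and 7, high-fat replicate 1 gave 9 and 3, and high-fat replicate 2 or 3 gave 7 and 2.

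Among 12 tested transcriptional targets, 2 were higher and 0 lower, against 14.9% and 8.78% of all genes tested. Ccnd1, a cyclin of the G1 phase, was at 142, 158 and 164 CPM on the high-fat diet, and at 88.2 and 96.5 CPM on chow (0.74 ± 0.10, SE, limma adjusted p = 0.00357). Sox9, a ductal transcription factor, was at 20.2, 10.5 and 14.1 CPM on the high-fat diet, and at 8.17 and 3.59 CPM on chow (1.25 ± 0.34, SE, limma adjusted p = 0.0388). Tnfrsf19, also known as Troy, was at 0.849, 0.631 and 0.937 CPM on the high-fat diet, and at 2.98 and 1.38 CPM on chow, and did not pass (adjusted p = 0.0557). Ccnd1 and Sox9 were thus above chow in every high-fat library, and Tnfrsf19 was below it. Such separation, in either direction, was present in 6 of the 12 tested targets and in 55.4% of all genes tested.

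Of all genes tested, 14.9% were higher and 8.78% lower, the shares to set beside the counts of these lists. In the destruction complex and the rest of the cytoplasm, 6 of 22 were higher and 1 lower. The kinase Csnk1g2, which phosphorylates Lrp6, rose by 0.41 ± 0.08 (log2, SE, limma adjusted p = 0.0144), Dact3, a Dishevelled antagonist, by 1.52 ± 0.30 (adjusted p = 0.0146) and Csnk2a1 by 0.37 ± 0.09 (adjusted p = 0.0249). Of 19 nuclear cofactors, 5 were higher and 2 lower. Ctbp2, a co-repressor, rose by 1.01 ± 0.19 and the acetyltransferase Crebbp by 1.10 ± 0.21, and the Groucho repressor Tle2 fell by 0.61 ± 0.12 (log2, SE, limma adjusted p = 0.0114, 0.0128 and 0.0127).

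Among 12 genes of ligand secretion and the cell surface, the heparan sulfate proteoglycan Gpc4 rose by 0.60 ± 0.09 and its relative Gpc3 fell by 1.10 ± 0.27 (log2, SE, limma adjusted p = 0.00535 and 0.0275). Sdc1, another proteoglycan, did not pass (adjusted p = 0.0547), and Wls, the carrier of Wnt proteins to the cell surface, was at 178, 187 and 170 CPM on the high-fat diet, and at 165 and 177 CPM on chow (adjusted p = 0.661). Of 28 genes of planar polarity and the calcium branch, 3 were higher and 0 lower, against 14.9% and 8.78% of all genes tested. They were Prickle2 (1.90 ± 0.31, adjusted p = 0.00727), the cadherin Celsr2 (0.71 ± 0.15, adjusted p = 0.0172) and the scaffold Scrib (0.31 ± 0.08, adjusted p = 0.0312), as log2 fold changes with SE from limma.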

How the data were processed

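RNA sequencing of isolated islets gave 1 table of 48321 gene names in 6 columns, for which the submitters' processing notes name Partek. Its version, the aligner, genome build and counting rule were not given in the sources used here. No unit is in the header of the deposited table, and the minimum of each column was exactly 1. The deposited values were therefore taken as CPM to which the authors had added 1, and this 1 was subtracted. The most common value above 0 in a column was taken as 1 read, which gave the implied totals. Among values of at most 20 reads, 64.6% to 70% per library came within 0.1 of a whole read, so no count model was fitted across genes. Read numbers are rounded to whole reads, and exact intervals of a read ratio use these rounded numbers and cover counting error only.

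Columns were matched to samples by their titles, and replicates were numbered in deposit order. The test was limma 3.58.1 (R 4.3.3), with trended variance prior, on log2(CPM + 1) of the 16939 genes averaging 0.5 CPM or more across 5 libraries, with Benjamini-Hochberg adjustment over these genes. This scale makes the fold change of low genes too small. The fit was tested on simulated data. The members, gene lists and marker lists were chosen with earlier results of these data known. Full values are given for members past the threshold and for the 2 most abundant members of each role, and per list of other pathway genes for up to 3 with the smallest p. Wls and the remaining members with values were named outside this rule, after their values were seen. Exon lengths and overlapping genes came from GENCODE M21 and promoter windows from RefSeq (GRCm38.p6), which may differ from the authors' annotation. Alternatives covered scaling, filters, the number added to the CPM, the variance prior, the acinar score as a covariate, all 6 columns and leaving out each library. The fit of all 6 columns counts the averaged chow column as a library, so a call kept there is no check.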

Additional observations from a re-analysis of the deposited data

How the results depend on the processing

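With the deposited CPM, 2524 genes were higher and 1487 lower, with 9 and 5 among the Wnt members and 17 and 4 among the other pathway genes. With acinar-free scaling, 803 genes were higher and 3716 lower, with 5 members higher, and 5 higher and 17 lower among the other pathway genes. With no filter these were 1080 and 573 genes, 2 members lower, and 3 and 0 other pathway genes (limma; 9 lower at an unadjusted p below 0.05). With the acinar score as a covariate they were 1184 and 770 genes, 3 members lower, and 7 and 2 other pathway genes. With no trend in the variance prior, 9 other pathway genes were higher. With all 6 columns, 4282 and 2796 genes and 27 and 9 other pathway genes were called. The averaged chow column adds no new data there, yet counts as a library and makes the spread within chow too small. Leaving out 1 library at a time gave 1187 to 2965 genes higher and 690 to 1428 lower, 7 to 12 members higher and 3 to 4 lower, and 7 to 25 other pathway genes higher and 0 to 7 lower (limma; 6 lower at an unadjusted p below 0.05 in the library set with 0). Where 1 chow library remained, it was assumed to vary like the high-fat libraries. None of the 14 called members changed direction in any of these alternatives, and Wnt7b, Sfrp5, Dkk3, Znrf3 and Sfrp1 kept their calls in each, as did Fzd9, selected by the filter for being high on 1 diet, in the 13 that tested it. Apart from the averaged column in the fit of all 6, the causes of these shifts were not tested. No paired analysis was possible because the labels give the groups no shared replicate numbers. Values under 0.16 CPM lie near the floor of 3 reads and rest on few reads.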
